A study of Danio rerio with 24 samples.

Results

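Keratins are intermediate filament proteins, and 7 zebrafish keratin genes that are linked to the enveloping layer are described here: krt8, krt4, krt5, cyt1, cyt1l, krt92 and krt97. They were chosen by gene symbol from the 31901 genes of the deposited tables, with earlier results of these data known. Each symbol occurred once, and all 7 genes are annotated as protein coding. Their RNA was measured in 24 whole-embryo libraries of wild-type zebrafish. Every embryo was kept in 0.1% dimethyl sulfoxide (DMSO). Of the 6 groups, 3 received the vehicle alone (0 µM) and 3 also received 40 µM tetrabromobisphenol A (TBBPA), a brominated flame retardant. Exposure began at 0.75 hours post fertilization (hpf) and ended at collection at 2, 3.5 or 4.5 hpf, with 4 libraries for each treatment and time. By its title, the series asked how the compound affects zygotic transcription and histone acetylation. The keratin comparisons ask how far the RNA of these 7 genes differed with that exposure.

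The enveloping layer is the flat outer epithelium of the fish blastula. It is the first epithelium to separate from the deep cells, which form the embryo proper, and it later spreads over the yolk. Keratin filaments are built from obligate pairs of a type I and a type II chain, and they are anchored at desmosomes, where they give epithelial sheets their mechanical strength. Keratin transcripts are known markers of this layer, and the krt4 promoter is widely used to drive transgenes in zebrafish surface epithelium.

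The unit is FPKM, the fragment count of a gene divided by its length and by a size set for its library. Levels can so be compared between genes per length. A level is given as mean FPKM ± SD over the 4 libraries of a group. A log2 difference is a difference of mean log2(FPKM + 1), tested with limma and adjusted over all genes tested, with a threshold of 0.05. Adding 1 pulls the differences of weakly expressed genes toward 0, so the ratio of mean FPKM is given beside it. The source of the replicates (clutches, separate exposures) is not stated, so a p-value here speaks of the spread among the samples at hand, which may be technical. Between 10.6 and 20.0 M (mega) reads per library were assigned to genes. In RNA of whole embryos, fewer cells of a type and less RNA per cell cannot be told apart.

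The genes lie on 4 chromosomes. The build is not given in the sources used here, and positions are those of the tables. Both krt8 (ENSDARG00000058358, chromosome 23, 10249626 to 10254288, minus strand) and krt5 (ENSDARG00000058371, chromosome 23, 10173196 to 10177458, minus strand) lie in a group of 4 keratin genes that spans 182357 bases and also holds krt18. The genes krt92 (ENSDARG00000036834, chromosome 19, 5349656 to 5352199), cyt1l (ENSDARG00000036832, chromosome 19, 5356421 to 5358455) and cyt1 (ENSDARG00000092947, chromosome 19, 5362420 to 5364649) follow each other on the minus strand. They belong to a run of 7 keratin genes within 56118 bases with 0 other annotated genes between them. The gene krt97 (ENSDARG00000000212, chromosome 22, 11756040 to 11759106, plus strand) has krt222 and krt96 as its keratin neighbours. The gene krt4 (ENSDARG00000017624, chromosome 6, 39308498 to 39313027, minus strand) is the only keratin gene named on its chromosome. None of the 7 overlaps another annotated gene (0 overlaps). The labels name both directional and non-directional libraries, so the strand information is not known. Reads of near-identical keratin copies may have been split or lost in counting, and values of neighbours such as cyt1 and cyt1l are uncertain in that respect.

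At 2 hpf, in the cleavage period, krt8 was the member with appreciable RNA. Its level in the 4 DMSO libraries was 1.19, 1.96, 0.483 and 1.27 FPKM, and in the 4 TBBPA libraries 1.19, 1.48, 1.13 and 1.20 FPKM. The groups overlapped, with 188 and 201 reads in all. The krt8 log2 difference was 0.06 (SE 0.20, limma adjusted p = 0.958, 4 libraries per group). The other members had 0 to 4 reads per group: krt97 had 1 read in DMSO and 4 in TBBPA, krt4 had 0 and 2, and krt5, krt92, cyt1 and cyt1l had 0 in all 8 libraries. For krt92 a count of 0 allows a level of up to 0.0282 FPKM in DMSO and 0.0272 in TBBPA (3 reads over the group, counting error only). Of all genes tested at this time, limma called 0.0% (0 of 11061; 795 had an unadjusted p under 0.05, and voom called 0), so the absence of a called keratin did not set them apart from other genes.

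At 3.5 hpf the vehicle embryos held traces of krt97, krt4 and krt92, and mean levels were lower in exposed embryos, a difference that did not pass the test over all genes. The krt97 level was 0.522, 0.382, 0.487 and 1.26 FPKM in DMSO and 0.339, 0.143, 0.371 and 0.346 in TBBPA. The krt4 level was 0.397, 0.775, 0.185 and 0.247 FPKM in DMSO and 0.0459, 0.0581, 0.0226 and 0.0935 in TBBPA. For both genes every exposed library lay below every vehicle library. The reads behind these values were few, with 57 against 31 for krt97 and 59 against 9 for krt4. The ratio of means, DMSO over TBBPA, was 2.21 for krt97 (95% counting interval 1.38 to 3.48) and 7.29 for krt4 (3.81 to 17.7). The exact permutation test (2-sided, 4 against 4) gave p = 0.0286 for each, the smallest it can give. The share of all genes with every exposed library below every vehicle library was not computed at 3.5 hpf. Both genes were under the filter on low values, and limma without that filter gave adjusted p = 0.331 for krt97 and 0.110 for krt4, so neither passed over all genes.

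The earliest krt92 reads were also in vehicle embryos at 3.5 hpf. DMSO libraries held 11 reads in 3 of 4 libraries (0.0984, 0, 0.0459 and 0.237 FPKM), and TBBPA libraries held 0. The TBBPA level was at least 4.24-fold lower by the floor of 3 reads over the group, if the DMSO mean is taken as exact. That mean rests on 11 reads, so its own counting error allows a smaller fold. The groups overlapped at 0 and the exact permutation p was 0.143 (2-sided, n = 4 per group). At this time cyt1 had 2 reads, both in TBBPA replicate 3, and cyt1l and krt5 had 0 in all 8 libraries.

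The krt8 mean was higher in TBBPA at 3.5 hpf, within the spread. It was 1.94, 1.63, 2.05 and 2.05 FPKM in DMSO and 2.23, 2.32, 1.92 and 2.76 in TBBPA, and the groups overlapped. Here krt8 was the 1 member that passed the filter, with a log2 difference of 0.18 (SE 0.10, 95% interval −0.04 to 0.39, limma adjusted p = 0.289, n = 4 per group). Of all genes tested at 3.5 hpf, 12.0% were called, with 6.67% higher and 5.34% lower in TBBPA. No member was among them.

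Between 3.5 and 4.5 hpf 4 keratin genes rose to substantial levels in vehicle embryos. In DMSO krt8 rose 29.1-fold, from 1.92 ± 0.201 to 55.8 ± 17.2 FPKM (log2 difference 4.24, SE 0.17, limma adjusted p = 1.25e-08, n = 4 per group). The krt97 level rose 52.0-fold, from 0.663 ± 0.403 to 34.5 ± 7.94 FPKM. The krt4 level rose 58.8-fold, from 0.401 ± 0.265 to 23.6 ± 3.74 FPKM. The krt92 level rose 261-fold, from 0.0954 ± 0.103 to 24.9 ± 7.27 FPKM, with a 95% counting interval of 144 to 517 since the earlier level rests on 11 reads. These 4 were among the steepest rises of the stage: of 12354 genes ordered by log2 difference, krt92 was number 2, krt97 number 3, krt8 number 6 and krt4 number 7. All 5 members tested were called higher at 4.5 hpf, where 35.8% of all genes tested were (24.8% when FPKM were rescaled to TPM). Of them, krt4, krt92 and cyt1 passed the filter on low values through the later group alone, and krt97 mainly so. The count is therefore a description.

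The embryonic type I keratins cyt1 and cyt1l, whose annotated names refer to the enveloping layer, came up more weakly in the same interval. In DMSO cyt1 went from 0 reads at 3.5 hpf to 199 at 4.5 hpf, when it lay at 1.97 ± 0.849 FPKM, at least 62.3-fold higher by the floor of 3 reads (log2 difference 1.53, SE 0.17, limma adjusted p = 1.82e-05, n = 4 per group). The cyt1l gene went from 0 to 51 reads and lay at 0.560 ± 0.0732 FPKM, at least 16.5-fold higher, and was under the filter. The krt5 gene, whose product is known from basal keratinocytes in mammals, had 3 reads in the 4 DMSO libraries of 4.5 hpf and 0 in the other 20 libraries. The data therefore hold next to no krt5 RNA, and at these stages its label as a keratin of the layer could not be checked.

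By 4.5 hpf the order of levels in vehicle embryos was krt8, krt97, krt92, krt4, cyt1, cyt1l and krt5. Neighbours among the first 4 overlapped between libraries, while krt4 lay above cyt1, cyt1 above cyt1l and cyt1l above krt5 without overlap. Among all genes of the tables krt8 held place 1650 by mean FPKM, krt97 place 2646, krt92 place 3426 and krt4 place 3595. The 7 genes summed to 141 ± 36.4 FPKM, 0.0337% of all FPKM.

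**Figure D1:**
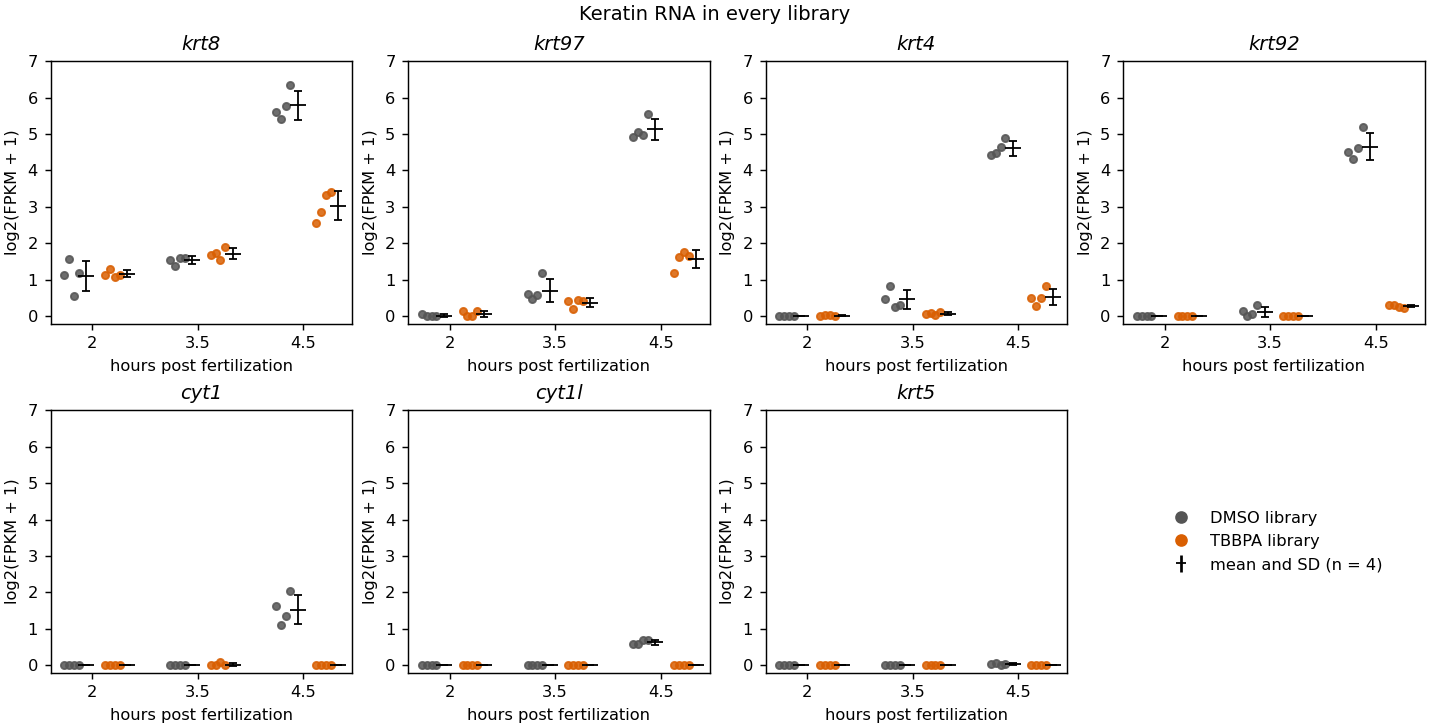
Level of each of the 7 keratin genes in every library, as log2(FPKM + 1), against hours post fertilization. Points are libraries (grey DMSO, orange TBBPA), and the cross and bar are mean and SD of 4 libraries. At 4.5 hpf the DMSO libraries stand above the TBBPA libraries for krt8, krt97, krt4, krt92, cyt1 and cyt1l. The 2 hpf values come from a separately scaled table.

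In embryos exposed to TBBPA these transcripts stayed low at 4.5 hpf, and not all of them to the same degree. The type II keratin krt8 lay at 47.7, 41.5, 53.5 and 80.5 FPKM in DMSO and at 4.89, 6.24, 9.05 and 9.54 FPKM in TBBPA. Every exposed library was below every vehicle library, and the mean, 7.43 ± 2.23 FPKM, was 13.3% of the vehicle mean. The krt8 log2 difference was −2.75 (SE 0.22, limma adjusted p = 2.26e-06, n = 4 per group).

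The type II keratin krt4 was lower still. It lay at 20.6, 21.2, 23.8 and 28.8 FPKM in DMSO and at 0.417, 0.219, 0.420 and 0.783 FPKM in TBBPA. Exposed embryos held 0.460 ± 0.235 FPKM, 1.95% of the vehicle mean, a ratio of 51.3 (95% counting interval 40.2 to 64.4). The krt4 log2 difference was −4.08 (SE 0.13, limma adjusted p = 3.32e-08, n = 4 per group).

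The lowest log2 difference among the genes tested at 4.5 hpf was that of krt92. It lay at 21.6, 19.0, 23.5 and 35.5 FPKM in DMSO and at 0.244, 0.237, 0.195 and 0.182 FPKM in TBBPA. The 4 exposed libraries held 28 krt92 reads in all against 2916, and the ratio of means was 116 (95% counting interval 80.5 to 176). The krt92 log2 difference was −4.38 (SE 0.16, limma adjusted p = 4.73e-08, n = 4 per group), number 1 of 12324 genes ordered from the lowest. That place is not firm, since the gene spaca4l lay within the error at −4.33 (SE 0.11). Ranks on a scale other than log2(FPKM + 1) were not computed.

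The krt97 gene lay between krt8 and krt4 in how far it differed. Its level was 29.0, 32.0, 30.6 and 46.2 FPKM in DMSO and 1.30, 2.11, 2.37 and 2.17 FPKM in TBBPA, again without overlap. The exposed mean of 1.99 ± 0.474 FPKM was 5.77% of the vehicle mean. The krt97 log2 difference was −3.56 (SE 0.16, limma adjusted p = 7.61e-08, n = 4 per group). In the same order krt4 was number 5, krt97 number 13 and krt8 number 51.

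The weak type I keratins were not detected in exposed embryos. The cyt1 gene lay at 2.07, 1.14, 1.56 and 3.11 FPKM in DMSO and had 0 reads in the 4 TBBPA libraries, where a count of 0 allows up to 0.0275 FPKM. Its level was at least 71.7-fold lower (limma log2 difference −1.53, SE 0.17, adjusted p = 2.31e-05, n = 4 per group), and by log2 difference it was number 430. Adding 1 holds the cyt1 log2 difference small at this low level, and ranks on another scale were not computed. The cyt1l gene lay at 0.505, 0.490, 0.633 and 0.614 FPKM in DMSO and had 0 reads in TBBPA, at least 19.0-fold lower. It was under the filter, and limma without the filter gave a log2 difference of −0.64 and adjusted p = 6.40e-06 (n = 4 per group). The krt5 reads were 1, 1, 0 and 1 in the DMSO libraries and 0 in TBBPA, which is under the floor.

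All 5 members tested at 4.5 hpf were called lower in TBBPA, where 35.0% of all genes tested were lower and 33.1% were higher. Rescaled to TPM, which sums to the same total in every library, the shares were 22.7% and 43.6%, the median of all genes moved from −0.02 to 0.14, and the same 5 members were lower. All 5 members tested had every exposed library below every vehicle library, against 32.3% of the genes tested. Of the members under the filter, the same held for cyt1l and not for krt5. The members krt4, krt92 and cyt1 passed the filter through the vehicle libraries alone and had to differ, so the 5 of 5 is a description. The 7 genes summed to 10.1 ± 2.75 FPKM in TBBPA, 0.00273% of all FPKM.

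The vehicle library with the highest value was replicate 4 for krt8, krt97, krt92, krt4 and cyt1. That library was also the highest for the summed levels of other marker lists, with 367 FPKM for 11 further enveloping layer markers (295 to 313 in the other 3), 99.7 FPKM for 6 yolk syncytial layer markers (66.5 to 73.5) and 765 FPKM for 11 deep cell markers (605 to 661). The germ cell markers went otherwise, with 267 FPKM in replicate 4 and 262 to 280 in the other 3. Summed over all genes, replicate 4 held 426367 FPKM, against 413743 to 417062 in the other 3. The part of replicate 4 in the keratin spread was not tested. Without it the limma log2 differences at 4.5 hpf were −2.56 for krt8, −3.41 for krt97, −3.98 for krt4, −4.20 for krt92 and −1.36 for cyt1 when the genes tested were kept as before.

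**Figure D2:**
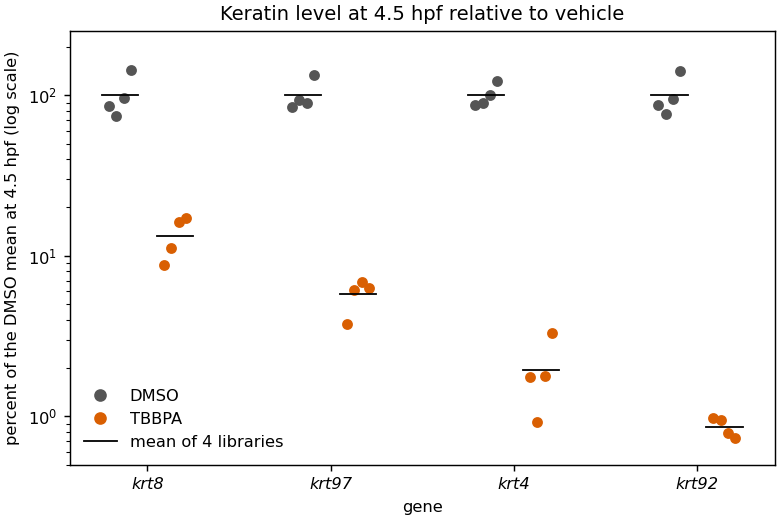
Level of krt8, krt97, krt4 and krt92 in each library of 4.5 hpf as a percent of the gene's DMSO mean, on a log axis. Points are libraries (grey DMSO, orange TBBPA) and bars are means of 4. The TBBPA means are 13.3% for krt8, 5.77% for krt97, 1.95% for krt4 and 0.861% for krt92.

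The keratins were therefore not reduced in proportion, as their ratios within each library show. All ratios here are of 4.5 hpf. In vehicle embryos krt8 stood to krt92 as 2.18 to 2.27 in the 4 libraries, a nearly fixed ratio at that time. In exposed embryos it was 20.0 to 52.5, with krt92 resting on 6 to 9 reads per library. The vehicle ratio was not fixed over time, since at 3.5 hpf krt8 lay at 1.92 ± 0.201 and krt92 at 0.0954 ± 0.103 FPKM in DMSO. Ratios within libraries were not computed at 3.5 hpf. The ratio of krt8 to krt4 was 1.96 to 2.79 in DMSO and 11.7 to 28.5 in TBBPA. The ratio of krt8 to krt97 was 1.30 to 1.75 in DMSO and 2.95 to 4.39 in TBBPA. In each of these the groups did not overlap. The ratio of krt97 to krt4 was 1.29 to 1.61 in DMSO and 2.77 to 9.65 in TBBPA, and that of krt97 to krt92 was 1.30 to 1.68 and 5.31 to 12.2. Each of the 5 ratios gave an exact permutation p of 0.0286 (2-sided, 4 against 4, the smallest possible), or 0.0343 adjusted over the 6 ratios computed. The 6 ratios are built from 4 genes, so they are not independent results. The share of other gene pairs whose ratios do not overlap was not computed. Among all genes tested at 4.5 hpf, limma called 35.0% lower and 33.1% higher in TBBPA, so shifted ratios need not be particular to keratins. The remaining ratio, krt4 to krt92, was 0.812 to 1.11 in DMSO and 0.923 to 4.31 in TBBPA and overlapped (exact permutation p = 0.114, n = 4 per group). In TBBPA the order of levels was krt8, krt97, krt4 and krt92, with overlap between the last 2 alone.

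**Figure D3:**
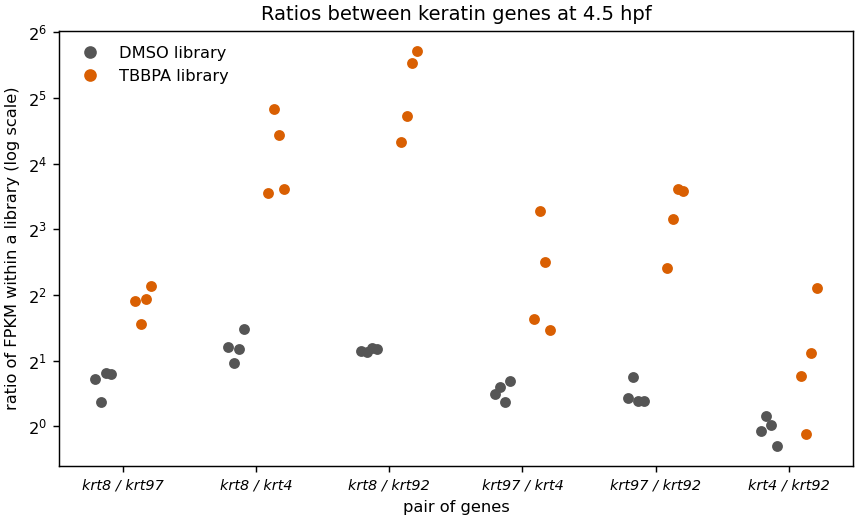
Ratio of FPKM between 2 keratin genes within each library of 4.5 hpf, on a log axis, for the 6 pairs of krt8, krt97, krt4 and krt92. Points are libraries (grey DMSO, orange TBBPA). The krt8 to krt92 ratio is 2.18 to 2.27 in DMSO and 20.0 to 52.5 in TBBPA, and only the krt4 to krt92 ratio overlaps between the groups.

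Exposed embryos did gain some keratin RNA between 3.5 and 4.5 hpf. In TBBPA krt8 rose 3.22-fold, from 2.31 ± 0.349 to 7.43 ± 2.23 FPKM (log2 difference 1.31, SE 0.18, limma adjusted p = 0.00135, n = 4 per group). The krt97 level rose 6.64-fold, from 0.300 ± 0.105 to 1.99 ± 0.474 FPKM (log2 difference 1.19, SE 0.13, limma adjusted p = 0.000684, n = 4 per group). Both members tested were called higher with time, where 6.15% of all genes tested were; krt97 passed the filter through the later group alone, so the count is a description. Under the filter, krt4 went from 9 to 75 reads, an 8.36-fold higher level (limma without the filter, adjusted p = 0.0358). There krt92 went from 0 to 28 reads, at least 9.54-fold higher if the later mean is taken as exact (adjusted p = 0.00440, limma without the filter). The cyt1 reads were 2 and 0, and cyt1l and krt5 had 0 at both times.

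Set against vehicle embryos 1 hour younger, of 3.5 hpf, exposed embryos of 4.5 hpf differed in krt8 and krt97. They held 3.88-fold more krt8 (log2 difference 1.49, SE 0.17, limma adjusted p = 0.000619, n = 4 per group) and more krt97, 1.99 ± 0.474 against 0.663 ± 0.403 FPKM (log2 difference 0.86, SE 0.17, limma adjusted p = 0.0153, n = 4 per group), each without overlap. Both members tested were called higher, where 3.55% of all genes tested were; krt97 passed the filter mainly through the exposed libraries, so the count is a description. The krt97 call was near the threshold, with adjusted p = 0.0492 by limma without the filter. The krt4 levels overlapped, 0.460 ± 0.235 against 0.401 ± 0.265 FPKM, a ratio of 1.15 with a 95% counting interval of 0.775 to 1.58 (exact permutation p = 0.686, n = 4 per group). The krt92 levels also overlapped, 0.215 ± 0.0308 against 0.0954 ± 0.103 FPKM (exact permutation p = 0.114, n = 4 per group). For cyt1, cyt1l and krt5 both groups had 0 reads. This comparison shares its samples with those above, and the share of all genes without overlap was not computed for it.

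The difference between the exposure effects at the 2 times was tested itself, as the interaction of treatment and time over 16 libraries. It was −4.25 on the log2 scale for krt92 (SE 0.19, limma adjusted p = 6.47e-10), number 1 of 12780 genes ordered from the lowest, and −3.68 for krt4 (SE 0.19, adjusted p = 2.13e-09), number 2. It was −3.23 for krt97 (SE 0.24, limma adjusted p = 2.68e-08), −2.93 for krt8 (SE 0.26, adjusted p = 2.26e-07) and −1.55 for cyt1 (SE 0.20, adjusted p = 6.49e-06). All 5 members tested were called lower at the later time, where 26.6% of all genes tested were (15.8% after rescaling to TPM). The members krt4, krt92 and cyt1 passed the filter through the DMSO libraries of 4.5 hpf alone. That favours a negative interaction without fixing its sign, so the 5 of 5 is a description.

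Of the 13 other keratin genes in the tables, krt18 alone was abundant enough to test. Its product is the type I partner of keratin 8 in simple epithelia. In vehicle embryos krt18 lay at 3.06 ± 1.51 FPKM at 3.5 hpf and at 44.9 ± 8.06 at 4.5 hpf, and in exposed embryos at 1.17 ± 0.686 and 4.09 ± 1.23. It was called lower in TBBPA at 3.5 hpf, near the threshold (log2 difference −0.89, SE 0.25, limma adjusted p = 0.0483, n = 4 per group). The groups overlapped there, with 2.08 FPKM at the lowest in DMSO and 2.17 at the highest in TBBPA. Whether that krt18 call holds under the alternative settings was not examined. At 4.5 hpf its log2 difference was −3.19 (SE 0.17, limma adjusted p = 1.69e-07, n = 4 per group). The other neighbours of the expressed members were weak: on chromosome 19 krt91 lay at 0.697 ± 0.310 FPKM in DMSO and 0.125 ± 0.0492 in TBBPA at 4.5 hpf, and krt17, krt1-19d and krtt1c19e had DMSO means of 0.0444, 0.106 and 0.131. Within that run of 7 genes, krt92 and cyt1 were thus the members above 1 FPKM in vehicle embryos.

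Further markers of the layer that are not keratins were also lower in exposed embryos at 4.5 hpf where they could be tested. Of 11 markers 7 were tested and all 7 were lower in TBBPA (median log2 difference −3.59, against −0.02 over all genes tested). Among all genes tested, 35.0% were lower. The sperm acrosome associated 4-like gene spaca4l lay at 32.7 ± 4.97 FPKM in DMSO and 0.672 ± 0.162 in TBBPA (log2 difference −4.33), and the tight junction claudin genes cldne and cldnb had log2 differences of −4.22 and −4.08. The calpain protease gene capn9 lay at 14.9 ± 3.58 and 0.315 ± 0.221 FPKM. Several of these markers, among them spaca4l and capn9, passed the filter through the vehicle libraries alone, and agr1 had 0 reads. That filter set their direction, so the count of lower markers and the median are a description. Unlike the other markers tested, the maternal E-cadherin gene cdh1 differed little (log2 difference −0.09, limma adjusted p = 0.0205). The cdh1 level was 110 ± 2.46 FPKM in DMSO and 103 ± 2.91 in TBBPA. At 3.5 hpf 2 of 4 markers tested were lower, cldne (log2 difference −2.37) and spaca4l (−1.37), against 5.34% of all genes tested. Here too spaca4l passed the filter through the vehicle libraries alone, which set its direction, so the count is a description.

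Transcription factors and signalling genes known for surface epithelium moved in both directions. Of 15 genes 13 were tested at 4.5 hpf, of which 9 were lower and 4 higher in TBBPA (median −0.81). The 9 and 4 stand against 35.0% lower and 33.1% higher among all genes tested. Grainyhead-like genes, regulators of epithelial differentiation, lay on both sides: grhl1 lay at 11.4 ± 1.42 FPKM in DMSO and 0.422 ± 0.136 in TBBPA (log2 difference −3.12), and grhl3 at 78.4 ± 4.93 and 14.7 ± 2.61 (−2.35). The related grhl2a was higher, with 1.22 ± 0.456 FPKM in DMSO and 2.94 ± 0.448 in TBBPA (log2 difference 0.84). The AP-2 genes tfap2a and tfap2c had log2 differences of −2.54 and −2.06. The other 3 higher genes were foxi1 (log2 difference 1.08), klf6a (1.03) and chuk (0.45). Since grhl1 passed the filter through the vehicle libraries alone, its direction was set, and the count of lower genes is a description. At 3.5 hpf 6 of 12 tested were lower and 1 was higher, against 5.34% lower and 6.67% higher among all genes tested. Among the lower ones was grhl3, with 27.2 ± 1.90 FPKM in DMSO and 7.40 ± 1.22 in TBBPA (log2 difference −1.75, limma adjusted p = 7.92e-06, n = 4 per group).

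Keratin filaments attach to desmosomes and plakins, whose genes were also examined. Of 16 desmosome and plakin symbols 14 were in the tables and 6 were tested at 4.5 hpf, of which 4 were lower and 1 higher in TBBPA (median −0.68). Among all genes tested, 35.0% were lower and 33.1% higher. The envoplakin gene evpla, which encodes a plakin that links filaments to the cell cortex, lay at 1.86 ± 0.724 FPKM in DMSO and 0.00359 ± 0.00415 in TBBPA (log2 difference −1.47, held small by adding 1). Whether these genes differed less than the keratins was not tested. The desmoplakin gene dspa had a log2 difference of −1.21, the periplakin gene ppl −0.77 and the plakoglobin gene jupa −0.59. Both evpla and dspa passed the filter through the vehicle libraries alone, which set their direction, so the count of lower genes is a description. None of the 4 tested at 3.5 hpf was called (0 higher, 0 lower), against 12.0% of all genes.

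Intermediate filament genes other than keratins were counted in the same way. Of 14 such genes 7 were tested at 4.5 hpf, with 6 lower and 1 higher in TBBPA (median −0.69). Among all genes tested, 35.0% were lower and 33.1% higher. The peripherin gene prph lay at 1.22 ± 0.0545 FPKM in DMSO and 0.00978 ± 0.0113 in TBBPA, a log2 difference of −1.13 that adding 1 holds small at this low level. The lamin genes lmna and lmnb2 had log2 differences of −1.02 and −0.69, and the neurofilament gene nefla had one of −0.77. Lamin genes moved in both directions, since the 1 higher gene was also a lamin gene (log2 difference 0.59). Both prph and nefla passed the filter through the vehicle libraries alone, which set their direction, so the count of lower genes is a description. At 3.5 hpf 1 of 5 tested was called, and it was higher, where 12.0% of all genes tested were called.

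Markers of the other cells of the embryo moved as well, and their part in the keratin result was not tested. Among all genes tested at 4.5 hpf, 35.0% were lower and 33.1% higher in TBBPA. Of 6 yolk syncytial layer markers 4 were tested and all 4 were lower at 4.5 hpf (median −1.83), and the summed level of the list was 66.5 to 99.7 FPKM in DMSO and 19.8 to 29.6 in TBBPA. Of 11 deep cell markers 10 were tested and 10 were lower (median −2.27), with summed levels of 605 to 765 and 133 to 177 FPKM, and gsc had 0 reads. The 4 germ cell markers gave 2 higher and 1 lower (median 0.19), with summed levels of 262 to 280 and 259 to 270 FPKM. At 3.5 hpf 7 of 10 deep cell markers were lower and 1 was higher, and 0 of 2 yolk syncytial layer markers were called. Among all genes tested at 3.5 hpf, 5.34% were lower and 6.67% higher. The deep cell marker chrd passed the filter at 3.5 hpf through the vehicle libraries alone, which set its direction. The count of lower deep cell markers at that time is therefore a description.

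**Figure D4:**
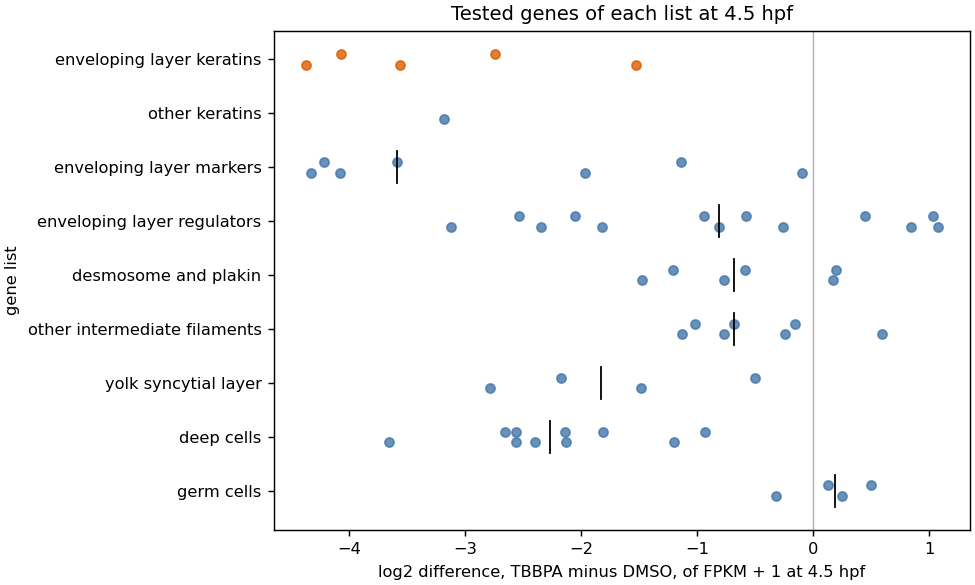
Log2 difference of FPKM + 1, TBBPA minus DMSO at 4.5 hpf, for each tested gene of the keratin group (orange) and of 8 comparison lists (blue); the black bar is the median of a list. The 5 tested keratins of the group lie between −4.38 and −1.53, and the germ cell list has its median at 0.19.

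Over the 16 libraries of 3.5 and 4.5 hpf the members varied together, with Pearson correlations of log2(FPKM + 1) of 0.919 to 0.993 between them. The 16 libraries fall into 4 groups, and these correlations mainly restate the differences between groups. Among 10023 genes compared by the same measure, the gene most like krt92 was slc14a2, a urea transporter gene (r = 0.998), and the next were ewsr1b and relt. The gene most like krt8 was gata6 (r = 0.995), followed by ism1 and ccne2. For krt4 the nearest genes were rac1a (r = 0.996), caap1 and e2f8. For krt97 they were ptbp1a (r = 0.996), dynll1 and anp32a, and for cyt1 they were evpla (r = 0.989), pfn1 and vox. The likeness is of shape and not of size: slc14a2 lay at 9.53 ± 1.49 FPKM in DMSO and 0.0916 ± 0.0329 in TBBPA at 4.5 hpf, and rac1a at 470 ± 10.2 and 343 ± 2.54.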

How the data were processed

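RNA sequencing of 24 whole-embryo libraries was analysed from 2 tables of FPKM that the authors deposited: 8 libraries (2 hpf) in one and 16 (3.5 and 4.5 hpf) in the other. Each of the 24 value columns was matched to its sample through the labels. HISAT2 2.0.5 and featureCounts 1.5.0-p3 are named in the submitters' processing notes, and the build is not given in the sources used here. FPKM times gene length gave whole multiples of 1 step per library for 100% of values within 0.001, and these were taken as assigned reads. The 2 tables were scaled separately, so levels at 2 hpf are set beside the others without a test.

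A gene entered a fit when 4 or more of its libraries reached 1 FPKM. The test was limma 3.58.1 (R 4.3.3; eBayes with a variance trend) on log2(FPKM + 1). It was 2-sided, and p-values were adjusted by Benjamini-Hochberg over all genes, with a threshold of 0.05. The script was tested on simulated data. Single genes and ratios used exact permutation tests (scipy 1.17.1). Counting intervals are 95%, and a floor is 3 reads over a group. Intervals and floors cover counting error only. A fold given as at least divides the mean of the detected group by the floor of the other group. It takes that mean as exact. Alternatives were another pseudocount (0.1), no filter, TPM, 2 other scalings, voom on recovered reads, a replicate block, 1 fit over 16 libraries and leaving out each library. The members and lists were chosen with earlier results of these data known. All 7 members are named, plus up to 4 genes per list with the largest absolute log2 difference past the threshold at 4.5 hpf, and the 3 protein-coding genes most like each tested member over 16 libraries. Named outside that rule, after their values were seen, were cdh1, agr1, grhl2a, foxi1, klf6a, chuk, gsc, krt91, krt17, krt1-19d and krtt1c19e. Promoter motifs and sequences were not analysed here, and 1 gene of the lists is not reported by name.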

Additional observations from a re-analysis of the deposited data

Results flagged for a closer look

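The effect of TBBPA differed between 3.5 and 4.5 hpf for the 5 members that could be tested, by limma's test of the interaction of treatment and time over 16 libraries. The difference of log2 differences was −4.25 for krt92, −3.68 for krt4, −3.23 for krt97, −2.93 for krt8 and −1.55 for cyt1. Of these, krt4, krt92 and cyt1 passed the filter on low values through the DMSO libraries of 4.5 hpf alone. That favours a negative interaction without fixing its sign. Single libraries stood apart from the other 3 of their group by Dixon's test in 4 sets of values, all of groups with a mean under 1 FPKM. Chance flags about 1 in 20 groups of normally distributed values, a rate that does not hold for counts near 0. For krt97 at 3.5 hpf, DMSO replicate 4 (1.26 FPKM) lay above the other 3, with a gap of 0.840 of the range, and TBBPA replicate 2 (0.143 FPKM) lay below the others, with a gap of 0.863. The other 2 rest on 1 and 2 reads: krt97 in DMSO replicate 1 at 2 hpf and cyt1 in TBBPA replicate 3 at 3.5 hpf, each with a gap of 1.0 of the range. A group with reads in 1 library alone always has that gap, so these 2 flags were fixed in advance. The vehicle libraries of krt97 at 3.5 hpf also lay above the exposed ones without replicate 4 (0.382 FPKM at the lowest against 0.371 at the highest).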

How the results depend on the processing

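Over 21 tests of single members, 538 alternative fits were run, of which 536 gave the same direction and the same side of the threshold and 0 changed a call. The 2 that turned direction were both krt8 at 2 hpf without DMSO replicate 3, with a log2 difference of −0.12 in place of 0.06 and adjusted p = 0.908 (0.910 with the genes of the full filter); leaving out 1 library at a time gave −0.12 to 0.21. Sizes moved with the scale for weakly expressed members: at 4.5 hpf the alternatives ranged from −6.74 to −4.20 for krt92, from −6.72 to −1.36 for cyt1 and from −2.94 to −2.56 for krt8. Nearest to the threshold was krt97 in TBBPA at 4.5 hpf against DMSO at 3.5 hpf, with adjusted p = 0.0492 with no filter (0.00367 to 0.0492 over its alternatives), and then the interaction of krt92 by voom on the recovered reads, with adjusted p = 0.0412 (1.64e-11 to 0.0412).

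Leaving out 1 library changed how many members could be tested, since the filter asks for 4 libraries. The number called was 2 to 5 for TBBPA against DMSO at 4.5 hpf, for time in DMSO and for the interaction, and it was 2 whenever 1 of the DMSO libraries of 4.5 hpf was left out. With the genes tested kept as before, an alternative chosen after seeing the data, it was 5 in each. For time in TBBPA the number was 1 to 2 when 1 library was left out and 4 with no filter, in place of 2. Among all genes, leaving out 1 library gave 925 to 1510 calls at 3.5 hpf (1424 with all libraries; 925 without TBBPA replicate 2, or 933 with the full filter's genes). It gave 1107 to 1699 for time in TBBPA (1753 with all; 1150 and 1130 without TBBPA replicates 1 and 2 of 3.5 hpf and the full filter's genes) and 539 to 837 for TBBPA at 4.5 hpf against DMSO at 3.5 hpf (965 with all; 604, 560 and 581 without DMSO replicates 1, 2 and 4 of 3.5 hpf and the full filter's genes).

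Deviations of same-numbered replicates had correlations of −0.08 to 0.19 over the 6 comparisons, against −0.19 to 0.14 for other numbers, and 2 to 5 of 8 libraries correlated best with their own number. In no comparison was every correlation above 0.1, and no source ties a number to a clutch or day, so the numbers were not taken as pairs. For time in TBBPA the same-number values were all positive (0.02 to 0.19). A replicate block gave 5 members called at 4.5 hpf, 5 for time in DMSO, 2 for time in TBBPA, 2 for TBBPA at 4.5 hpf against DMSO at 3.5 hpf, 5 for the interaction and 0 at 2 and 3.5 hpf, as without it. With the block limma called 8293 genes at 4.5 hpf in place of 8392.

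Depth limits the members at 2 and 3.5 hpf most, where krt97, krt4 and krt92 rest on at most 59 reads per group.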
